A study of Mus musculus with 6 samples.

Results

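The 34 genes described here act in homologous recombination (HR) and in the Fanconi anemia (FA) pathway of DNA repair, and their transcripts were measured by RNA sequencing in mouse germinal center (GC) B cells. They were taken by gene name from a list, and all 34 were found among the 19680 genes of the deposited table. The cells were sorted as B220-positive, CD38-negative, FAS-positive cells from the spleens of C57BL/6 mice, aged 6 to 8 weeks at immunization, on day 14 after 100 µg of the hapten-protein antigen NP-CGG was given into the peritoneal cavity. The cKO group (3 libraries, genotype Senp1flox/flox Cγ1-Cre) carries loxP-flanked Senp1 alleles and a Cre recombinase expressed from the Cγ1 antibody constant locus, which acts in B cells that have responded to antigen. The WT group (3 libraries, genotype Senp1flox/flox) carries the same floxed alleles without Cre, so effects of Cre itself and of losing Senp1 cannot be told apart in this comparison. Senp1 encodes a protease that takes the small protein SUMO off its targets, and the comparison asks how transcript levels change when it is deleted. The labels speak of paired WT and cKO mice but do not tie a library to a mouse, so the p-values reflect the spread of these libraries alone, which may be technical.

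HR repairs a broken chromosome, or a broken replication fork, by copying the sister chromatid. The broken ends are trimmed to single strands, BRCA1 and BRCA2 with their partners ready those strands for pairing with the sister, and helicases and nucleases later take the joined molecules apart. The FA pathway frees replication forks stalled at crosslinked DNA: a core complex attaches ubiquitin to the FANCD2-FANCI clamp, which recruits nucleases and then HR proteins. GC B cells divide fast, mutate their antibody genes and can cut them during class switching. Many genes of both pathways are known to be transcribed mainly in S and G2 phase.

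The 6 libraries held 3019152 to 9657005 reads assigned to genes in cKO and 5160902 to 10339054 in WT. Values are normalized counts, which are the authors' gene counts divided by a size factor for each library, and 1 read is worth 0.542 to 2.04 normalized counts in cKO and 0.506 to 1.06 in WT. Senp1 itself measured 373, 425 and 398 in cKO and 915, 868 and 891 in WT. It was lower in all cKO libraries, whose labels give the genotype and not the level, but was still present. For Senp1, limma gave a log2 fold change of -1.16 and an adjusted p of 0.111, the smallest over all genes tested. The authors' deposited table gives Senp1 an adjusted p of 2.38e-09. Transcripts of the B cell genes Ptprc, Cd79a, Cd79b and Ms4a1 and of the GC genes Bcl6, S1pr2, Mybl1 and Rgs13 had 959 or more normalized counts in every library, whereas the GC gene Mef2b had 2.04 to 5.69 in cKO and 0 to 1.52 in WT. T cell markers (15 genes) summed to 1012, 2912 and 623 normalized counts in cKO replicates 1 to 3. In WT replicates 1 to 3 they summed to 924, 892 and 834, so cKO replicate 2 held the most. Lck alone gave 563, 691 and 470 of these in cKO and 484, 574 and 498 in WT. The median log2 deviation of the 15 from each gene's mean was 0.21, 2.47 and -1.31 in cKO. In WT it was 0.14, -0.52 and -0.20. Of the 15, cKO replicate 3 had 3 at 0 (Cd3d, Cd3g and Cd8a) and WT replicate 3 had 1 (Cd8b1). Macrophage markers (11 genes) summed to 326, 465 and 302 in cKO and to 306, 221 and 124 in WT, of which Fcgr1 and Cd14 were at 2.53 or less in every library. The mitochondrial share of reads was 3.66% to 19.1% in cKO and 2.71% to 9.83% in WT. Over all genes tested, the first principal component (33.2% of the variance) put cKO and WT replicate 1 close together, at -49.1 and -54.4. WT replicates 2 and 3 lay at -10.1 and 16.3 on it, and cKO replicates 2 and 3 at 56.2 and 41.2. On the second component (27.8%), cKO replicates 2 and 3 stood apart from the other 4 libraries and from each other, at -64.5 and 67.0. The others lay between -8.09 and 7.57 there.

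No HR or FA gene passed the test between cKO and WT, although more of them had lower than higher cKO values. With limma on log2(normalized counts + 1) over 14678 genes and all 6 libraries, 0 of the 34 had an adjusted p under 0.05, where the share over all genes tested was 0.0%, and 0 had an unadjusted p under 0.05 in either direction, where it was 5.15% over all genes tested, 2.17% lower and 2.98% higher. The adjusted p-values of the 34 ran from 0.915 to 0.998. With the replicate numbers as a block in limma, 5 of the 34 had an unadjusted p under 0.05, all lower in cKO. This held for 9.08% of all genes in either direction, and 0 of the 34 passed the adjustment. edgeR and DESeq2 on reads recovered from the normalized counts also called 0 of the 34, and 0 had an unadjusted p under 0.05 by either tool, where the share over all genes was 5.66% for edgeR and 2.84% for DESeq2. The authors' deposited table lists 0 of the 34 at an adjusted p under 0.05 and 0 at an unadjusted p under 0.05, where 0.197% of the genes given an adjusted p are listed as changed. The log2 fold change was negative for 25 of the 34, against 50.2% of all genes tested, and the median was -0.24, against -0.0019 over all genes tested. The 95% confidence interval of each of the 34 includes 0, and its half-width was 0.54 log2 units at the median, so differences of the size seen here were not detectable at this spread. For 4 of the 34 (Rad50, Rbbp8, Fancm and Topbp1, 11.8%) every cKO library lay below every WT library, and for 0 above. Over all genes tested, 11.6% had groups that do not overlap, 5.28% lower in cKO and 6.28% higher.

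**Figure D1:**
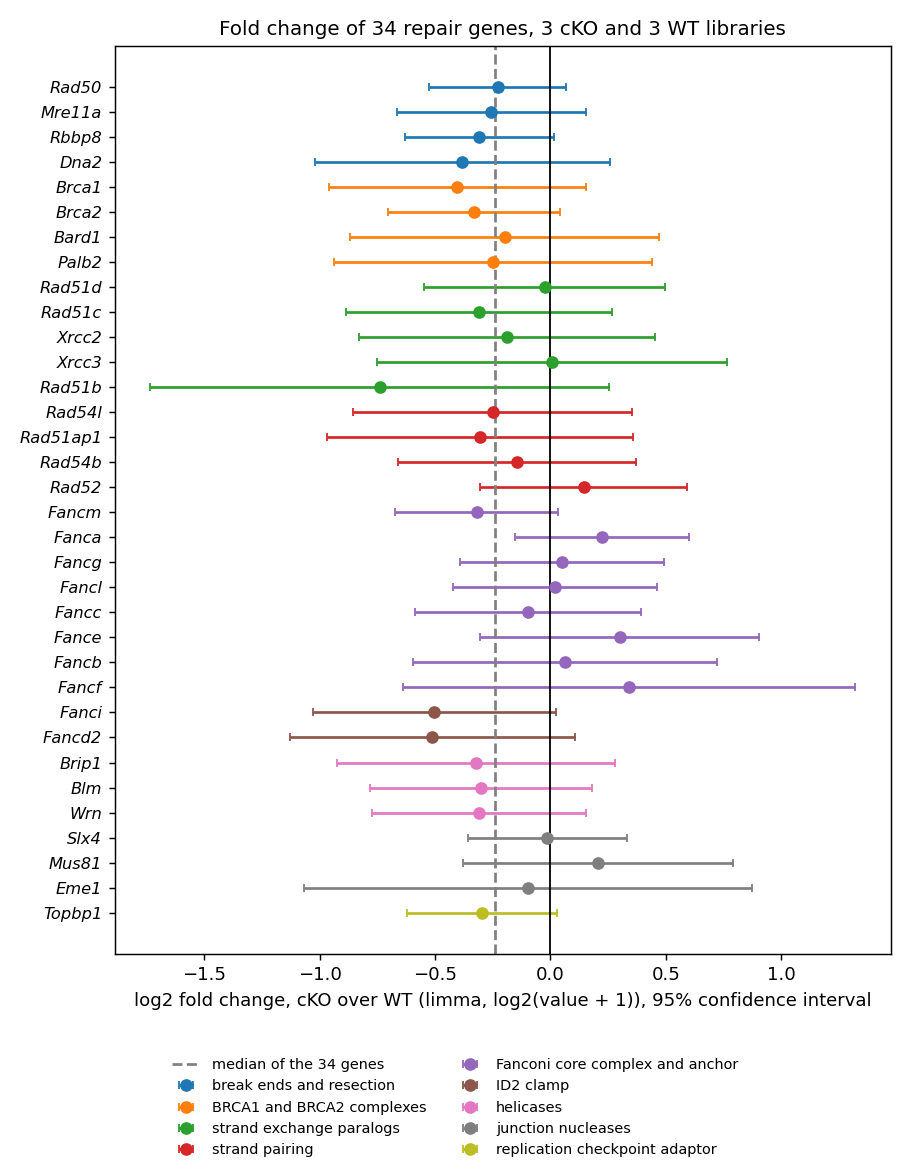
Log2 fold change of cKO over WT for each of the 34 genes (x axis, limma on log2(normalized counts + 1)), with genes down the page in 9 role groups. Points are estimates from 3 cKO and 3 WT libraries, bars are 95% confidence intervals, all of which cross 0, and the dashed line is the median of -0.24.

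The lower median rested in part on single libraries. Leaving out cKO replicate 2 gave -0.04, and leaving out WT replicate 1 gave -0.13. Leaving out cKO replicate 1 gave -0.37, and leaving out WT replicate 3 gave -0.36. Without cKO replicate 1, groups did not overlap for 15 genes, all lower in cKO. Over all genes tested, 27.1% were then apart in either direction, and the lower share was not counted. Without WT replicate 3, groups did not overlap for 13 lower and 2 higher genes, against 20.2% of all genes in either direction. With library totals they did not overlap for 2 genes, both lower, against 11.3% in either direction. Within replicate 1 the median difference of cKO minus WT was -0.08 with 22 of 34 genes lower, and within replicates 2 and 3 it was -0.28. The sign was negative in both for 19 genes, positive in both for 5 and opposite for 10.

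Among the genes that handle broken ends and trim them, all 4 had lower cKO means and the groups did not overlap for Rad50 and Rbbp8. Rad50 (ENSMUSG00000020380, chromosome 11, 53649519 to 53707319 of GRCm38) encodes the ATPase that tethers DNA ends with MRE11. Rad50 had 471, 503 and 437 normalized counts in cKO replicates 1 to 3, against 538, 595 and 519 in WT replicates 1 to 3. Each cKO library lay below each WT library, though the gap between the nearest pair (503 and 519) was smaller than the SD of either group (log2 fold change -0.23 ± 0.13 (SE), limma unadjusted p = 0.116, adjusted p = 0.926). Rbbp8 encodes CtIP, which starts resection together with MRE11, and had 343, 304 and 302 normalized counts in cKO replicates 1 to 3, against 399.9, 425 and 352 in WT replicates 1 to 3. Every cKO library was below every WT library (log2 fold change -0.31 ± 0.14 (SE), limma unadjusted p = 0.0589, adjusted p = 0.915), and the difference within replicate 1 was -0.22 and within replicates 2 and 3 -0.35. Mre11a, the nuclease of the same complex, averaged 342 ± 60.3 in cKO and 407 ± 58.3 in WT, and Dna2, a nuclease-helicase for longer resection, 291 ± 106 in cKO and 373 ± 95.1 in WT (SD, n = 3 each). The groups overlapped for both, and for Dna2 cKO replicate 1 lay at 410.5 with WT replicate 1 at 398, while cKO replicates 2 and 3 lay below every WT library.

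All 4 genes of the BRCA1 and BRCA2 complexes had lower cKO means, with a median log2 fold change of -0.29, and none had groups that were fully apart. Brca1 (chromosome 11, 101488764 to 101551955) encodes the ubiquitin ligase subunit that favours resection and recruits PALB2 and BRCA2. It had 599, 338 and 400.3 normalized counts in cKO replicates 1 to 3, against 704, 603 and 443 in WT replicates 1 to 3. Replicate 1 was the highest library of both groups, and the cKO library of replicate 1 exceeded WT replicate 3 (log2 fold change -0.40 ± 0.24 (SE), limma unadjusted p = 0.135, adjusted p = 0.926). Brca2 (chromosome 5, 150522630 to 150570329), which acts on the trimmed single strands, had 303, 245 and 263 normalized counts in cKO replicates 1 to 3, against 335, 394 and 295 in WT replicates 1 to 3. Here cKO replicate 1 and WT replicate 3 alone overlapped (log2 fold change -0.33 ± 0.16 (SE), limma unadjusted p = 0.0759, adjusted p = 0.915). Bard1, the partner of BRCA1, averaged 188 ± 64.3 in cKO and 215 ± 71.5 in WT, and Palb2, the bridge between BRCA1 and BRCA2, 93.6 ± 35.8 in cKO and 106 ± 7.91 in WT (SD, n = 3 each). The Palb2 difference came with cKO replicate 2, at 55.0, since the other 5 libraries lay between 96.5 and 126. Its log2 fold change was -0.25 with all libraries and 0.09 without cKO replicate 2.

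The paralogs Rad51b, Rad51c, Rad51d, Xrcc2 and Xrcc3, which assist strand exchange, had lower cKO values in 4 of 5 cases (median log2 fold change -0.19), and the genes of strand pairing in 3 of 4 (median -0.20), with groups that overlapped for all 9. Rad51d, the paralog with the highest count, had 163, 171 and 100.1 normalized counts in cKO replicates 1 to 3, against 140.0, 147 and 143 in WT replicates 1 to 3. The cKO libraries lay on both sides of the closely spaced WT libraries (log2 fold change -0.03 ± 0.23 (SE), limma unadjusted p = 0.914, adjusted p = 0.994), and the sign turned positive with edgeR and DESeq2. Rad51c averaged 89.8 ± 25.3 in cKO and 109 ± 11.5 in WT, Xrcc2 71.9 ± 18.2 in cKO and 82.1 ± 20.98 in WT and Xrcc3 55.1 ± 20.4 in cKO and 53.8 ± 13.3 in WT (SD, n = 3 each), with overlap in each case. The estimate for Xrcc3 was 0.01, and it changed sign with library totals or quantile scaling. Rad51b had the most negative fold change of the 34 (-0.74, 95% confidence interval -1.73 to 0.26) and also few reads: 32, 5 and 5 in cKO and 56, 21 and 16 in WT. The exact Poisson interval for 5 reads is 1.62 to 11.7, which covers counting error only, so its fold change is poorly determined. Rad54l, a motor protein that drives strand exchange, had 413, 229.7 and 315 normalized counts in cKO replicates 1 to 3, against 455, 416 and 266 in WT replicates 1 to 3, and WT replicate 3 lay below cKO replicates 1 and 3 (log2 fold change -0.25 ± 0.26 (SE), limma unadjusted p = 0.370, adjusted p = 0.941). Rad51ap1, which stimulates strand pairing, averaged 189 ± 74.9 in cKO and 227 ± 54.2 in WT, and Rad54b, a relative of Rad54l, 119 ± 29.2 in cKO and 129 ± 8.10 in WT (SD, n = 3 each). Rad52, which anneals single strands, was the member of this group with a higher cKO mean, at 91.3 ± 9.68 in cKO and 82.4 ± 3.44 in WT, and its log2 fold change of 0.14 was within its error.

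The FANCD2-FANCI clamp had fold changes of about the same size for both of its genes, and both were lower in cKO. Fanci (chromosome 7, 79391929 to 79450264) had 296, 171 and 200.2 normalized counts in cKO replicates 1 to 3, against 359, 318 and 253 in WT replicates 1 to 3. It had the smallest unadjusted p of the 34, and the groups overlapped because cKO replicate 1 lay above WT replicate 3 (log2 fold change -0.50 ± 0.23 (SE), limma unadjusted p = 0.0586, adjusted p = 0.915). Fancd2 (chromosome 6, 113531682 to 113597017) had 257, 127 and 184 normalized counts in cKO replicates 1 to 3, against 308, 278 and 204 in WT replicates 1 to 3. The same pair of libraries overlapped (log2 fold change -0.51 ± 0.27 (SE), limma unadjusted p = 0.0934, adjusted p = 0.915). Without cKO replicate 1 the groups separated for both genes, each lower in cKO, where 27.1% of all genes tested separated in either direction. With single libraries left out in turn, the log2 fold change ran from -0.73 to -0.33 for Fanci and from -0.76 to -0.26 for Fancd2. It was nearest to no change without cKO replicate 2 for both. The log2 difference within replicate 1 was -0.28 for Fanci and -0.26 for Fancd2, against -0.61 and -0.64 within replicates 2 and 3.

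Of the 8 core complex and anchor genes, 6 had a positive fold change and 2, Fancm and Fancc, a negative one, with a median of 0.06. Fancm (chromosome 12, 65075603 to 65132058), the DNA translocase that anchors the complex at stalled forks, had 482, 363 and 468 normalized counts in cKO replicates 1 to 3, against 507, 527 and 595 in WT replicates 1 to 3. All cKO libraries lay below all WT libraries (log2 fold change -0.32 ± 0.15 (SE), limma unadjusted p = 0.0704, adjusted p = 0.915), with a difference of -0.07 within replicate 1 and -0.44 within replicates 2 and 3. Fancl, the ubiquitin ligase of the complex, averaged 136 ± 20.2 in cKO and 134 ± 16.3 in WT, and Fanca, which forms a subcomplex with Fancg, 259 ± 10.5 in cKO and 224 ± 37.96 in WT (SD, n = 3 each). Fancg averaged 139.8 ± 25.9 in cKO and 134 ± 11.4 in WT. Fance, which links the core to FANCD2, averaged 66.4 ± 13.7 in cKO and 53.6 ± 9.68 in WT. The subunit genes Fancb and Fancc lay close to their WT levels, with Fancb at 50.1 ± 5.06 in cKO and 49.2 ± 14.7 in WT and Fancc at 98.8 ± 18.4 in cKO and 105 ± 9.87 in WT. Fancf, an adaptor, was read least in the group, at 15.3 ± 2.74 in cKO and 12.3 ± 4.45 in WT, from 7 to 26 reads a library in both genotypes. Of these 8 estimates, those for Fancb, Fancg and Fancl turned negative with library totals, and Fancb also with quantile scaling.

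Helicase genes had lower cKO means in all 3 cases, and the junction nucleases differed by less than their errors. Brip1 encodes the BRCA1-bound helicase also known as FANCJ and had 308, 149.9 and 255 normalized counts in cKO replicates 1 to 3, against 339.7, 257 and 267 in WT replicates 1 to 3. Only cKO replicate 2 was clearly apart, with cKO replicate 3 just under the lowest WT library (log2 fold change -0.32 ± 0.26 (SE), limma unadjusted p = 0.252, adjusted p = 0.930). Blm, which dissolves crossed DNA strands, averaged 215 ± 48.4 in cKO and 262 ± 41.7 in WT, and Wrn, a helicase with a nuclease domain, 194 ± 46.4 in cKO and 236 ± 17.97 in WT (SD, n = 3 each). Slx4, the scaffold that holds the junction nucleases, had 790.1, 604 and 756 normalized counts in cKO replicates 1 to 3, against 778, 739.9 and 643 in WT replicates 1 to 3. The groups were interleaved (log2 fold change -0.01 ± 0.15 (SE), limma unadjusted p = 0.933, adjusted p = 0.994), and the sign turned positive with quantile scaling and with edgeR. Mus81 averaged 179.9 ± 42.3 in cKO and 157 ± 40.4 in WT and its partner Eme1 117 ± 50.8 in cKO and 128 ± 57.99 in WT, and for both WT replicate 3 was the lowest of the 6 libraries. MUS81 and EME1 form 1 enzyme, and their estimates had opposite signs (0.21 and -0.10), with confidence intervals that include 0.

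Topbp1, the adaptor that activates the checkpoint kinase ATR at stalled forks and that also binds repair proteins, was the most abundant of the 34. Topbp1 (chromosome 9, 103305215 to 103350428) had 1622, 1260.3 and 1556 normalized counts in cKO replicates 1 to 3, against 1771, 1979 and 1689.8 in WT replicates 1 to 3. The groups did not overlap, and the nearest pair of libraries differed by less than the SD of either group (log2 fold change -0.30 ± 0.14 (SE), limma unadjusted p = 0.0672, adjusted p = 0.915). Its difference was -0.13 within replicate 1 and -0.38 within replicates 2 and 3.

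**Figure D2:**
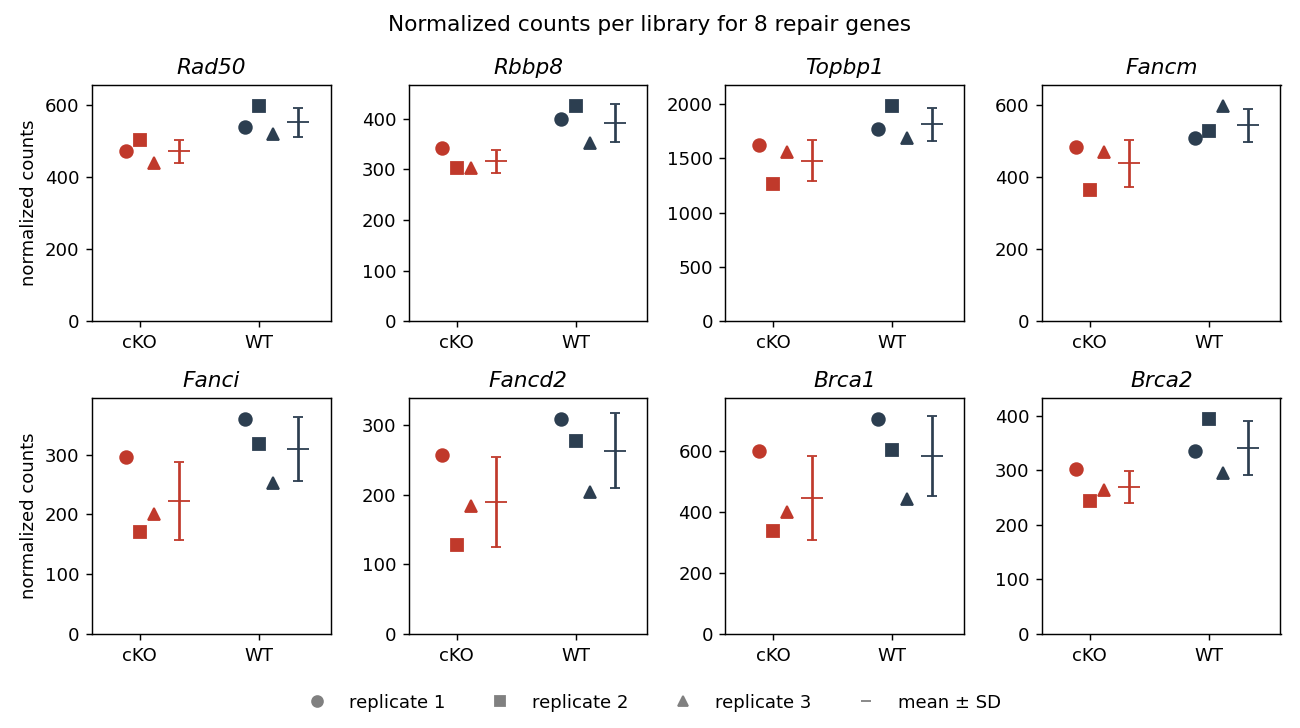
Normalized counts per library (y axes, from 0) for 8 of the 34 genes, cKO left and WT right in each panel. Symbols mark replicate numbers and the bars give mean ± SD (n = 3); the groups do not overlap for the upper 4 genes and overlap for the lower 4.

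Most of the 34 genes ranked the libraries in a like order. Their median deviation from the gene mean was 0.18, -0.37 and -0.12 log2 units in cKO replicates 1 to 3 and 0.20, 0.19 and -0.08 in WT replicates 1 to 3. Library cKO replicate 2 was the lowest of all 6 for 20 of the 34 genes (58.8%, against 22.7% of all genes tested). Within cKO, replicate 1 was the highest for 25 of 34 genes, and within WT, replicate 3 was the lowest for 25 of 34 (33.8% and 34.8% over all genes tested). The coefficient of variation was larger in cKO than in WT for 25 of the 34, with medians of 23.7% in cKO and 15.8% in WT. Over all genes tested it was larger in cKO for 61.5%, with medians of 25.5% in cKO and 20.6% in WT. Among the 10296 genes tested whose mean was at or above the lowest mean of the 34, it was larger in cKO for 61.9%. The median coefficients of variation of that set were 18.2% in cKO and 14.96% in WT, below those of the 34 in both groups. These differences were not tested. The FA core and anchor genes had medians of 0.08, 0.02 and 0.01 in cKO replicates 1 to 3 and 0.12, -0.18 and -0.03 in WT replicates 1 to 3.

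**Figure D3:**
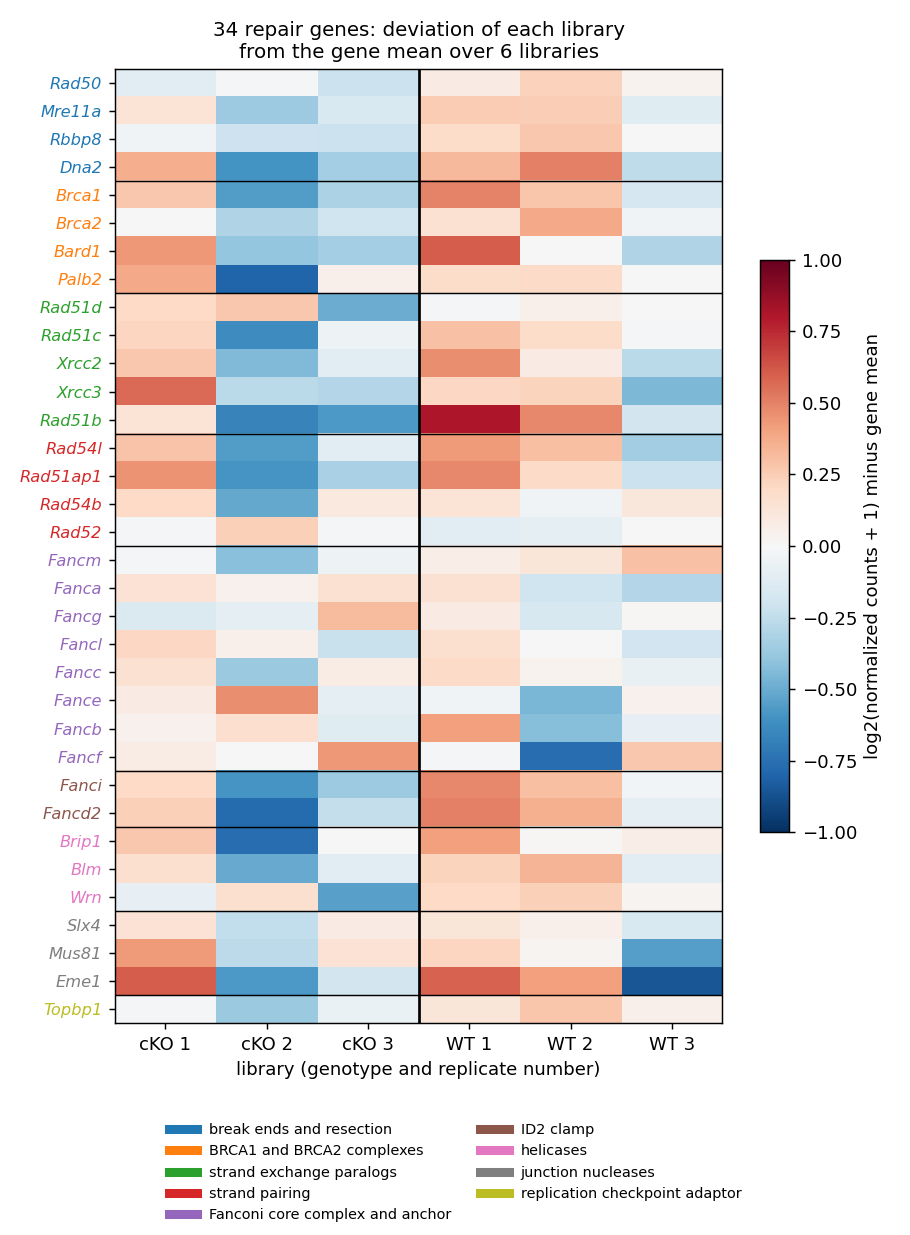
Deviation of log2(normalized counts + 1) from each gene's mean over the 6 libraries (colour, red above and blue below), with the 34 genes in rows by role and the libraries in columns, cKO left of WT. Columns cKO 2 and, more weakly, cKO 3 are mostly blue, and the rows of the FA core genes hold both colours.

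Lists of replication and division genes ordered the libraries in a like way. The 36 S phase genes had medians of 0.26, -0.47 and -0.16 in cKO and 0.37, 0.22 and -0.20 in WT, and the 25 G2/M genes 0.45, -0.89 and -0.21 in cKO and 0.70, 0.28 and -0.31 in WT. The median log2 fold change was -0.26 for S phase genes, with 33 of 36 negative, and -0.44 for G2/M genes, with 25 of 25 negative. By limma 0 genes of either list passed the adjustment over all genes. At an unadjusted p under 0.05 were 2 of 36 S phase and 1 of 25 G2/M genes, all lower in cKO. Over all genes tested this share was 5.15%, with 2.17% lower. The order of the libraries by the HR and FA median followed that of the S phase median for the highest library, WT replicate 1, and the lowest, cKO replicate 2. That library also had the fewest reads, the largest T cell and macrophage marker sums given above and a mitochondrial share of 12.3%. Replicate 3 of cKO had nearly as few reads (3082897), the highest mitochondrial share (19.1%) and the lowest T cell sum. The part of dividing cells, other cell types, depth and mitochondrial reads in the values of the 34 genes was not tested. In these bulk libraries fewer cells that express a gene and less RNA per cell cannot be told apart.

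**Figure D4:**
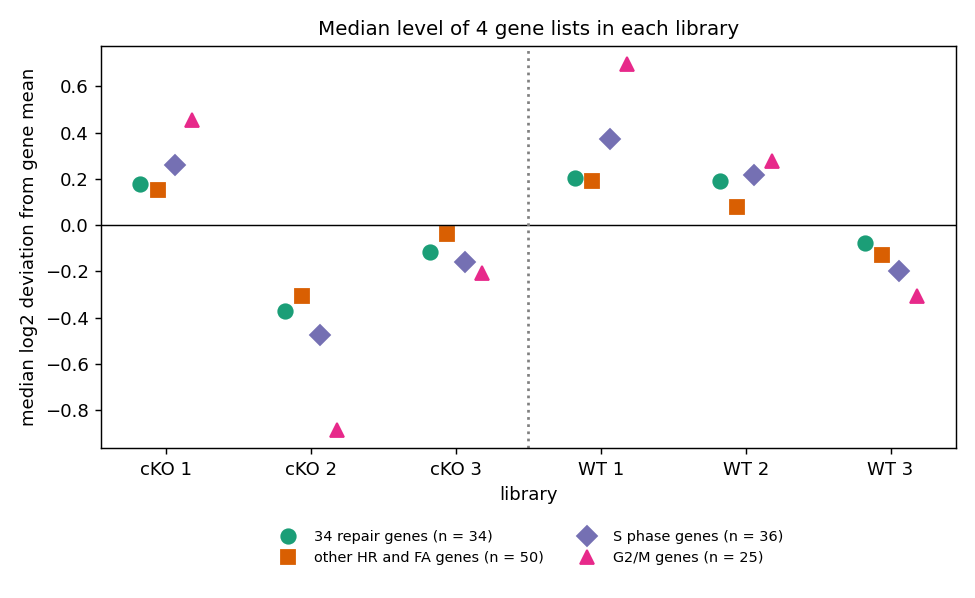
Median log2 deviation from the gene mean (y axis) in each of the 6 libraries (x axis, cKO left of WT) for the 34 genes, the other HR and FA genes, and S phase and G2/M genes. All 4 lists are lowest in cKO replicate 2 and highest in WT replicate 1.

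The rest of the pathway also had more lower than higher cKO values, with a smaller median. A list of 51 other HR and FA genes was set down by function, of which 50 were found and tested. By limma 0 passed the adjustment over all genes, and 3 were lower and 0 higher at an unadjusted p under 0.05. These 3 and Babam2 had groups that do not overlap, all lower in cKO. Over all genes tested, 5.15% had such a p and 11.6% such groups in either direction, and 2.17% and 5.28% lower in cKO. The shares of 6% and 8% here were near or below the first pair and above the second. These shares were not tested. The log2 fold change was negative for 37 of the 50 and the median was -0.10. The median difference of cKO minus WT was 0.01 within replicate 1 and -0.14 within replicates 2 and 3. Rfwd3, a ubiquitin ligase that clears RPA from damaged DNA, had 1095, 685 and 839.5 normalized counts in cKO replicates 1 to 3, against 1245, 1140.2 and 1154 in WT replicates 1 to 3. The groups did not overlap (log2 fold change -0.46 ± 0.18 (SE), limma unadjusted p = 0.0292, adjusted p = 0.915). Usp1, the enzyme that takes ubiquitin off the FANCD2-FANCI clamp, had 1061, 1091 and 1044 normalized counts in cKO replicates 1 to 3, against 1207, 1571 and 1317 in WT replicates 1 to 3. Its cKO libraries were close together and below every WT library (log2 fold change -0.35 ± 0.13 (SE), limma unadjusted p = 0.0308, adjusted p = 0.915). Mnd1, a cofactor of strand exchange known from meiosis, averaged 38.6 ± 16.2 in cKO and 63.7 ± 3.54 in WT (SD, n = 3 each), also without overlap (log2 fold change -0.79 ± 0.33 (SE), limma unadjusted p = 0.0415, adjusted p = 0.915). Among the next genes by p, the fork remodeller gene Zranb3, the BLM partner gene Rmi2, the junction nuclease gene Gen1 and the helicase gene Recql had negative estimates (-0.40, -0.49, -0.49 and -0.24) and Faap100, a core complex subunit, a positive one (0.41), none of them past the test.

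Per kilobase of merged exons, the 34 genes spanned a 32.6-fold range of levels over the 6 libraries. Topbp1 stood at the top with 147 ± 21.3 normalized counts per kilobase (SD over the 6 libraries), followed by Rad50 (94.98 ± 10.2) and Slx4 (93.8 ± 10.01), which did not differ beyond their spread. Fancf (8.14 ± 2.18) and Rad51b (4.50 ± 1.96) were lowest. Genes whose products form 1 complex were not always at like levels. Rad50 was above Mre11a (63.2 ± 10.8), Brca1 (60.3 ± 16.6) above Bard1 (35.6 ± 11.1) and Fanci (46.1 ± 12.4) above Fancd2 (28.5 ± 8.44), while Mus81 (47.2 ± 10.98) and Eme1 (44.3 ± 17.8) were within each other's spread. Brca2 and Palb2, which act together, had 22.4 ± 3.91 and 13.6 ± 3.28. The 5 paralogs ranged from 4.50 for Rad51b to 38.7 for Rad51d, with Rad51c at 22.7 ± 4.67, Xrcc3 at 19.8 ± 5.61 and Xrcc2 at 14.8 ± 3.53. Exon lengths come from GENCODE M21 and include exons that these cells may not use.

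**Figure D5:**
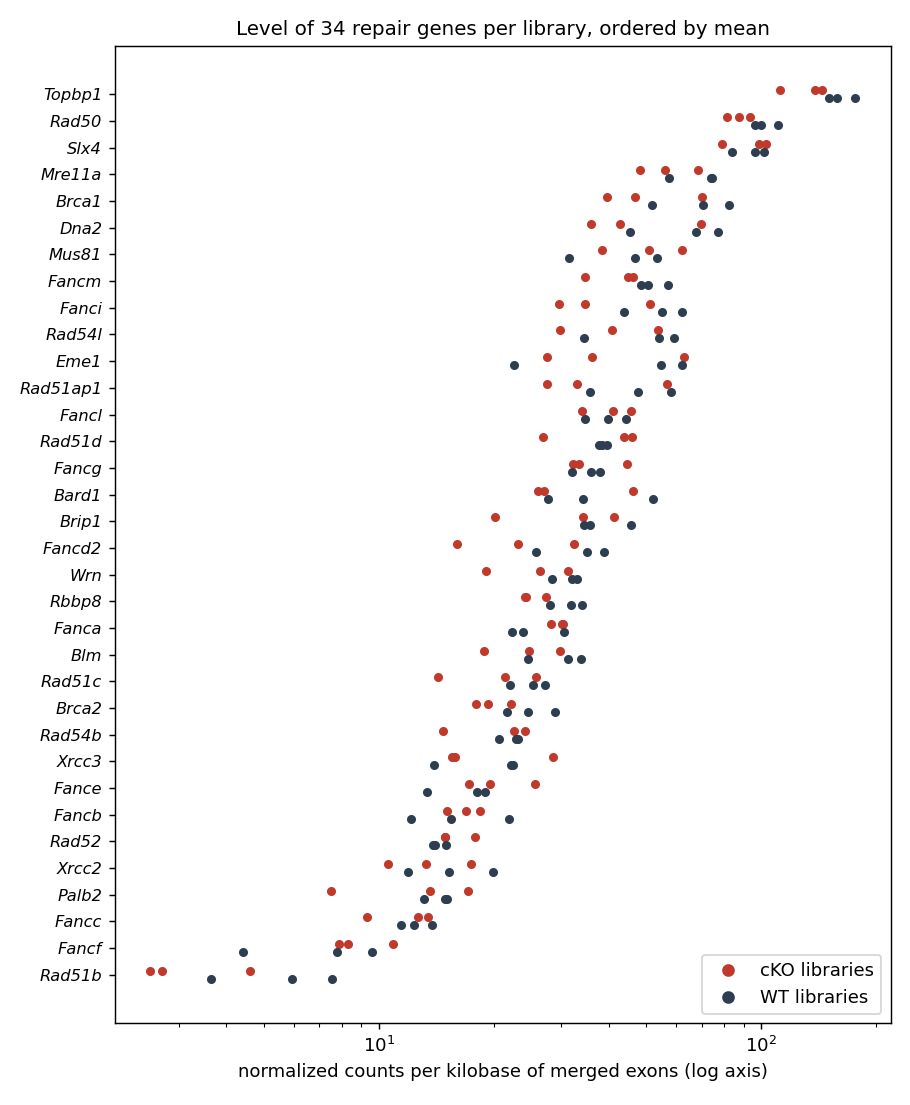
Normalized counts per kilobase of merged exons (x axis, log scale) in each cKO and WT library for the 34 genes, ordered down the page by their mean over 6 libraries. Topbp1 is highest and Rad51b lowest, and the cKO and WT libraries overlap for most genes.

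Exons of 17 of the 34 genes overlap exons of another gene, and the sources used here do not say whether reads were counted by strand. The largest overlaps with genes of the table were 35.8% of Rad54b with Fsbp on the same strand, 16.0% of Fanci with Polg, 15.4% of Rad54l with Lrrc41, 14.96% of Fancf with Gas2, 13.7% of Fancl with Vrk2 and 10.5% of Fanca with Zfp276, the last 5 on opposite strands. Reads from these stretches cannot be assigned to 1 gene with certainty, so the values of these 6 genes are uncertain. The percentages are shares of exon bases, and the share of reads affected was not measured. Brca1, Rad50 and Topbp1 share no exon bases with another gene.

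Promoters are shown because E2F, CHR and CCAAT motifs are known from cell cycle promoters. The RefSeq promoter table (GRCm38.p6) matched 27 of the 34 by symbol, and the 250 bases before the start site were searched on both strands for an E2F motif (TTTGGCGC or TTTCCCGC), a CHR motif (TTTGAA or TTCGAA) and CCAAT. The E2F motif was present for 3 of 27 (11.1%, against 1.30% of all 32851 windows): Bard1, Brca2 and Fancg. The 27 entered with 1 window per symbol. Every window was counted for the wider share, which was not limited to genes expressed in these cells. CCAAT was present for 15 of 27 (55.6%, against 33.8%) and the CHR motif for 1, Bard1 (3.70%, against 17.1%). The shares were not tested, and an absent match says only that these letters are not in the window. The median log2 fold change was -0.20 for the 3 genes with the E2F motif and -0.25 for the other 24. The windows below are those of the 4 genes with the smallest unadjusted p that the table holds, Brca2, Fancm, Fanci and Topbp1, and that of Bard1, chosen after its motifs were seen. They lie at chr1:71102973-71103222 (minus strand), chr5:150522371-150522620 (plus strand), chr12:65075353-65075602 (plus strand), chr7:79392088-79392337 (plus strand) and chr9:103305077-103305326 (plus strand), each 5′ to 3′ on the strand of the gene and ending at the base before the RefSeq start site, which can lie inside the GENCODE gene, with motif matches in capitals.
Bard1: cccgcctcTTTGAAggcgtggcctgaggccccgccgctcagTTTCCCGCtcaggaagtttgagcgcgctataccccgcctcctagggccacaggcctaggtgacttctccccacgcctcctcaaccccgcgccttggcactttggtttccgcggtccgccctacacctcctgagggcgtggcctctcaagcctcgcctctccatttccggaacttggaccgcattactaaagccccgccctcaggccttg
Brca2: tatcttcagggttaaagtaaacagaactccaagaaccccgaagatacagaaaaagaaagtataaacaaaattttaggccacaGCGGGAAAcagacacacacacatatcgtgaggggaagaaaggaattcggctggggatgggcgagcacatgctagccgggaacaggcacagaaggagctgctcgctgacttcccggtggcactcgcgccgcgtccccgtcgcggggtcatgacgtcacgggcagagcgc
Fancm: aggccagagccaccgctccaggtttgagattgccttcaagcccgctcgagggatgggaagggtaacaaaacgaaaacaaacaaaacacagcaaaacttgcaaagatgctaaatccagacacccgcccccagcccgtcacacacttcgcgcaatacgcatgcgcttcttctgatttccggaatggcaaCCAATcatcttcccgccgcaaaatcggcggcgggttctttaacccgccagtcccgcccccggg
Fanci: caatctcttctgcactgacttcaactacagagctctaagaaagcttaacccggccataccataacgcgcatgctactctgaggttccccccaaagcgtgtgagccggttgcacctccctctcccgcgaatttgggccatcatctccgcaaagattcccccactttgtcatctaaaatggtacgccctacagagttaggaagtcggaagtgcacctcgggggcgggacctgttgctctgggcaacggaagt
Topbp1: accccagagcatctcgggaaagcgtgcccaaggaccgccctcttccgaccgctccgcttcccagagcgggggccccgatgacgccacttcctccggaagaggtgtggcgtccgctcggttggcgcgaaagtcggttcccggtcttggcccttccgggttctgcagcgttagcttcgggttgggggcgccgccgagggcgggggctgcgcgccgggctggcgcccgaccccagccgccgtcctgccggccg
In these windows the capitals mark TTTGAA and TTTCCCGC in Bard1, the reverse complement of TTTCCCGC in Brca2 and CCAAT in Fancm, while Fanci and Topbp1 hold none of the letters searched.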

How the data were processed

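Per the labels' protocols, total RNA of sorted cells was taken with the RNeasy Plus Micro kit for Illumina libraries. Build mm10 and the tools DESeq2, HTSeq, HISAT, HISAT2, TopHat2 and SAMtools are listed per the submitters' processing notes. Their versions and roles, the strand setting and the annotation release were not given in the sources used here. The authors deposited 1 table whose library columns hold a signal per gene, counts divided by a size factor, beside their log2 fold change, its error, a test score and p-values, per the file headers. In each library 100% of values were whole multiples of what 1 read is worth (tolerance 0.01 read), so reads were recovered.

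The test was limma 3.58.1 (R 4.3.3) with trend on log2(value + 1), for 14678 genes with a mean of at least 1, genotype alone as term, Benjamini-Hochberg adjustment over all of them, threshold 0.05. It was also run on simulated data. The planted changes there were larger than any estimate for the 34 genes in the main fit, so differences of their size were not covered. Alternatives were edgeR 4.0.16 and DESeq2 1.42.0 on recovered reads, a pseudocount of 0.5, no filter, a minimum mean of 10, library totals, quantile scaling, the replicate block, a term for replicate 1, and single libraries left out. Fold changes on this scale understate low genes. Positions and exon lengths are GENCODE M21 (GRCm38), which holds 19563 of the IDs and all 34 genes. All 34 also passed the filter on low values.

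The genes, lists and tests were chosen with earlier results of these data known. Values in every library are given for genes of the 34 whose groups do not overlap, with an unadjusted p under 0.05, or with the highest mean in a role group, and for Brca2 and Fancd2, chosen after their values were seen. Outside the 34, the rule took Senp1 and the 8 other HR and FA genes with the smallest p. Some genes are not reported here.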

Additional observations from a re-analysis of the deposited data

How the results depend on the processing

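Under every alternative tried, 0 of the 34 HR and FA genes passed the adjustment over all genes, and their median log2 fold change kept its sign. The labels call the mice paired without saying that a number marks a litter or day. Same-numbered cKO and WT libraries did not all deviate together (r = 0.49, 0.05 and 0.20 for replicates 1 to 3, across genes, which are not independent replicates). Libraries with unlike numbers had r from -0.40 to 0.17. These correlations do not settle whether the numbers mark pairs. Because the labels do not say so, the main test did not take the numbers as pairs. Differences given within replicate numbers are descriptions only. With the replicate block, limma called 1 gene over all genes. At an unadjusted p under 0.05 it had 1333 genes (9.08%), 632 of them lower in cKO, and 5 of the 34, all lower. With a term for replicate 1 it called 3 genes. There 1345 genes (9.16%) had such a p, 664 of them lower, and 5 of the 34, all lower. DESeq2 called 20 genes, none of the 34. Of the 34, 1 reached an unadjusted p under 0.05 with library totals (Fancm, against 4.59% of all genes). In replicates 2 and 3 alone 1 did (Fanci, against 7.36%), and both were lower in cKO. Library totals put the median of all genes at -0.079. They left 2 genes without overlap between the groups (Fancm and Rad50, both lower, against 11.3% of all genes in either direction). With single libraries left out, genes called over all genes stayed at 0. Genes at an unadjusted p under 0.05 ranged from 343 (without WT replicate 2) to 1359 (without cKO replicate 1). Those among the 34 ranged from 0 to 6, all lower in cKO. There were 6 without cKO replicate 1, where 9.26% of all genes had such a p, 638 of the 1359 lower. Without WT replicate 3 there were 5, against 4.03%, 220 of 592 lower. Without cKO replicate 2 there was 1, against 4.96%, 407 of 728 lower. These shares were not tested. The count of the 34 without overlap ranged from 4 to 15, with 15 without cKO replicate 1 or WT replicate 3. In either direction, groups were then apart for 27.1% and 20.2% of all genes. The count with lower cKO values ranged from 21 to 28 and the median from -0.37 to -0.044. With the term for replicate 1 and cKO replicate 2 left out, chosen after seeing the data as were the non-overlap counts under alternatives, 22 were lower and the median was -0.11. Changes of sign were seen for Fancg (-0.029), Fancb (-0.015), Fancl (-0.059), Xrcc3 (-0.071) with library totals; Fancb (-0.011), Slx4 (0.039), Xrcc3 (-0.077) with quantile normalization; Rad51d (0.033), Slx4 (0.0032) by edgeR on recovered reads; Rad51d (0.028) by DESeq2 on recovered reads; Xrcc3 (-0.17) in replicates 2 and 3 alone. With single libraries left out, sign changed within these ranges: Fancl -0.078 to 0.14, Xrcc3 -0.28 to 0.15, Palb2 -0.50 to 0.089, Rad54b -0.28 to 0.075, Fancc -0.20 to 0.064, Eme1 -0.55 to 0.17, Fancb -0.13 to 0.28, Slx4 -0.092 to 0.11, Fancg -0.097 to 0.14, Rad51d -0.16 to 0.22, Bard1 -0.46 to 0.053, Mus81 -0.016 to 0.39. The causes were not tested. Fits with 1 library left out assume that the remaining ones vary alike. At 3019152 reads in the smallest library, Rad51b and Fancf rest on as few as 5 and 7 reads.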
